A study of Mus musculus with 8 samples.

Results

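The 10 genes described here encode the core of the mouse microRNA pathway, and were taken by symbol from a table of read counts for 12211 genes: Drosha, Dgcr8, Xpo5, Dicer1, Tarbp2, Prkra, Ago1, Ago2, Ago3 and Ago4. All 10 symbols had a row, and all 10 passed the filter on low counts that left 11909 genes to be tested. RNA sequencing compared 4 libraries of PUS10KO mouse embryonic fibroblasts, cells grown from embryonic connective tissue that lack the pseudouridine synthase PUS10 per the labels, with 4 control libraries of wild-type fibroblasts. Both sets were grown in serum-containing medium with antibiotics, and total RNA was sequenced in pairs of reads from strand-preserving libraries. The libraries are numbered 1 to 4 in each genotype. The labels do not give the strain, the age of the embryos, the targeted part of Pus10, or whether libraries of a genotype came from separate cultures, clones or animals, so a p-value here speaks of the variation among these 8 libraries alone, and that variation may be technical.

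MicroRNAs are made in steps. In the nucleus the Microprocessor, made of the ribonuclease Drosha and its RNA-binding partner Dgcr8, cuts hairpins out of primary transcripts, and Xpo5 exports the hairpins to the cytoplasm. There Dicer1 removes the loop, helped by the RNA-binding proteins Tarbp2 and Prkra, and an Argonaute protein (Ago1 to Ago4) takes up the mature strand and carries it to target messenger RNAs. In human cells PUS10 has itself been linked to the processing of primary microRNAs by the Microprocessor, which gives the comparison of these genes between genotypes its interest.

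Some of these genes also carry microRNA sequence. The Microprocessor is known to cut hairpins in the Dgcr8 message, and the mature arms of those hairpins are shown because they place a substrate of the enzyme within the message of its own subunit. The lines below give the RefSeq sequences, 5′ to 3′, for the microRNAs inside Dgcr8 (chromosome 16, minus strand) and Xpo5 (chromosome 17, plus strand), with the seed, bases 2 to 8, in capitals.
mmu-miR-1306-5p: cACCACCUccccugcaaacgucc
mmu-miR-1306-3p: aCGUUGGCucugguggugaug
mmu-miR-3618-5p: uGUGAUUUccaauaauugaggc
mmu-miR-3618-3p: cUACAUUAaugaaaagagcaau
mmu-miR-693-5p: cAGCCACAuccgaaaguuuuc
mmu-miR-693-3p: gCAGCUUUcagauguggcuguaa
The arms of miR-1306 lie in a coding exon of Dgcr8 (chr16:18284248-18284268 and chr16:18284288-18284310, GRCm38.p6), and those of miR-3618 in an untranslated part of an exon (chr16:18284562-18284583 and chr16:18284602-18284623). The arms of miR-693 lie in an intron of Xpo5 (chr17:46231551-46231571 and chr17:46231581-46231603). No seed is shared among these 6 sequences, and mature microRNAs were not measured in these libraries.

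Total counts ran from 17561114 to 24563499 per library. Pus10 (GRCm38, chromosome 11, 23665674 to 23732876) was lower in every PUS10KO library, with 13.8 ± 1.6 CPM (read counts rescaled to a common library size) in PUS10KO and 46.1 ± 6.46 CPM in control (SD, n = 4 each, log2 fold change -1.74, adjusted p = 0.000189, edgeR). The genotypes also differed in the Y-linked genes Uty, Kdm5d and Eif2s3y, which had at least 722 counts each in every PUS10KO library and at most 2 in any control library. Of 10 fibroblast markers all had a row, with summed levels of 10277 to 15680 CPM in PUS10KO and 16543 to 20805 CPM in control. In PUS10KO 4 of the 10 were called lower and 0 higher (adjusted p under 0.05, edgeR), where 7.11% of all tested genes were called lower. Their median log2 fold change was -0.37. The surface marker Thy1 had at most 1 count in any PUS10KO library against 404 to 452 counts in control. None of 6 epithelial markers had a row, and the haematopoietic markers summed to 2.51 to 6.67 CPM in PUS10KO and 4.997 to 9.05 CPM in control. Summed levels of the 3 neural markers with a row were 66.6 to 94.5 CPM in PUS10KO and 165 to 239.99 CPM in control. Of the variance over all genes, 56.1% lay along a principal component that separated the genotypes, and 26.1% along the next, which separated libraries 1 and 2 from libraries 3 and 4 in both genotypes. The part of these differences in the results below was not tested. In such bulk samples, fewer cells expressing a gene and less of its RNA per cell cannot be told apart.

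None of the 10 genes passed the test between genotypes, where 13.0% of all tested genes did, 5.90% with higher and 7.11% with lower levels in PUS10KO (edgeR's quasi-likelihood test, Benjamini-Hochberg adjustment, threshold 0.05). The differences were small: the median absolute log2 fold change was 0.16 over the 10 genes and 0.26 over all tested genes. Dicer1 was the 1 gene of the 10 with an unadjusted p under 0.05, and the 1 whose genotypes did not overlap, where 10.6% of all tested genes were lower and 9.70% higher in PUS10KO without overlap. By DESeq2, with 10.5% of its genes called lower and 9.39% higher, Dicer1 fell. Limma voom called none of the 10, with 2 at an unadjusted p under 0.05, and 12.7% of all genes, with 6.84% lower and 5.87% higher in PUS10KO. When the library number was added to the fit as a block, so that libraries of the same number were compared with each other, Dicer1 fell and Prkra and Ago1 rose. That fit called 39.0% of all tested genes, and 3 of 10 is not far from that share. The plot of CPM by library shows all 80 values.

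**Figure D1:**
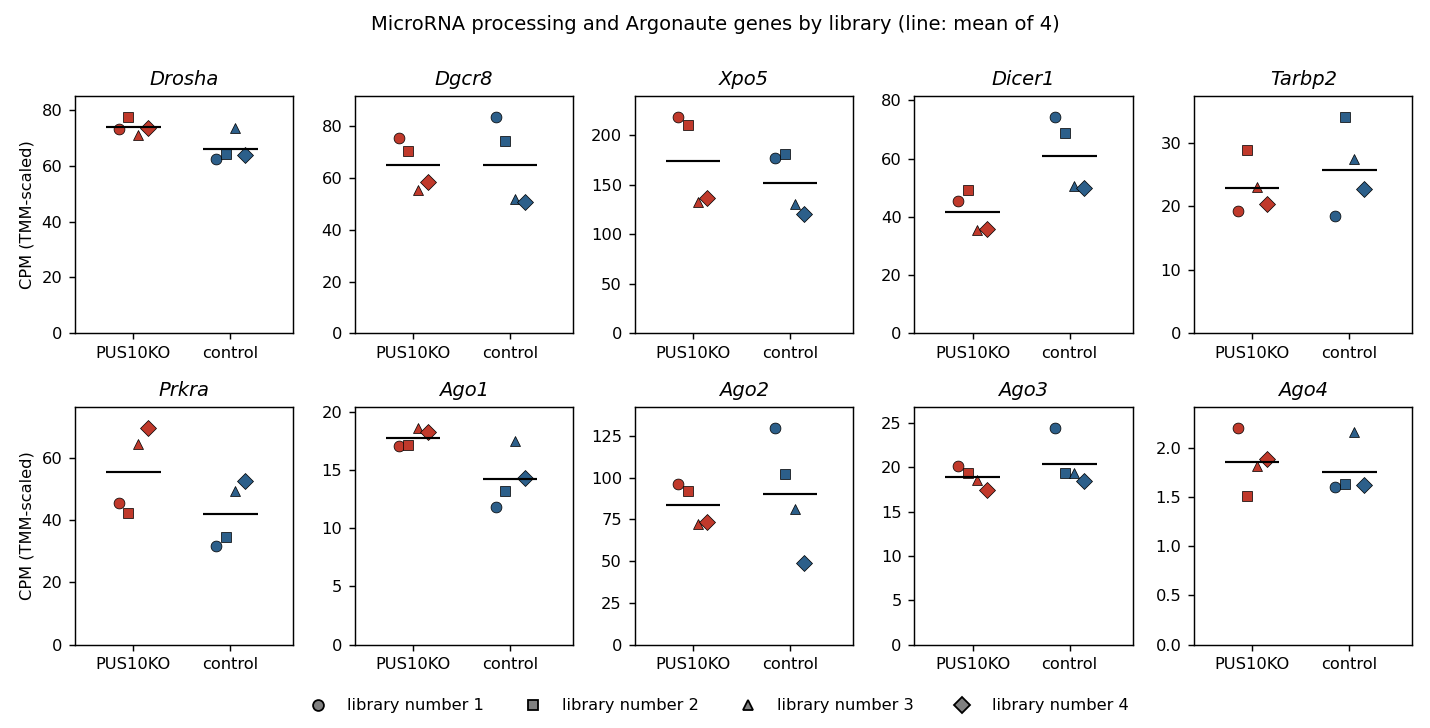
CPM scaled by TMM (vertical axis, from 0) of the 10 genes in the 4 PUS10KO libraries (left, red) and the 4 control libraries (right, blue); marker shapes give the library number and lines the mean of 4. Dicer1 is the gene without overlap between genotypes, from 35.6 to 49.1 CPM in PUS10KO and from 49.9 to 74.2 CPM in control, while Dgcr8, Xpo5, Dicer1 and Ago2 are higher in libraries 1 and 2, and Prkra and Ago1 in libraries 3 and 4, within both genotypes.

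Among the nuclear factors, Drosha was the steadiest. It had 73.0, 77.4, 71.0 and 73.5 CPM in PUS10KO libraries 1 to 4, against 62.5, 64.1, 73.5 and 63.8 CPM in control libraries 1 to 4. Control 3 stood among the PUS10KO values, and without it the genotypes would not overlap. The fit without control 3 did not pass either (log2 fold change 0.22, adjusted p = 0.287, edgeR). With all 8 libraries the log2 fold change was 0.16 (SE 0.10, 95% interval -0.07 to 0.40, adjusted p = 0.375, edgeR). The biological coefficient of variation of Drosha, edgeR's estimate of replicate spread, was 0.146, smaller than that of all but 1.55% of tested genes. Drosha lies on chromosome 15 (12824815 to 12935291, plus strand, GRCm38).

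Dgcr8, the partner that anchors Drosha on the hairpin, had 75.5, 70.2, 55.2 and 58.3 CPM in PUS10KO libraries 1 to 4, against 83.5, 74.4, 51.7 and 50.7 CPM in control libraries 1 to 4. The genotypes overlapped throughout, and libraries 1 and 2 were above libraries 3 and 4 in both. Between genotypes the log2 fold change was -0.01 (SE 0.20, 95% interval -0.45 to 0.44, adjusted p = 0.992), and 0.02 with the block (95% interval -0.19 to 0.22). Of the 7696 bases of merged Dgcr8 exons (chromosome 16, 18253948 to 18289246, minus strand), 825, or 10.7%, are shared with exons of Trmt2a, a tRNA methyltransferase gene on the opposite strand. The sources used here do not give the strand setting of the counting, so reads of the overlap could have been assigned to either gene. For Trmt2a itself the value was -0.11 (adjusted p = 0.752).

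Xpo5, the exporter of precursor hairpins, had the most counts of the 10 genes: 218, 210.2, 132 and 137 CPM in PUS10KO libraries 1 to 4, against 177, 181, 131 and 121 CPM in control libraries 1 to 4. PUS10KO was higher at every number, by 0.31, 0.22, 0.02 and 0.18 on the log2 scale, but the gap between libraries 1 and 2 and libraries 3 and 4 was wider than any of these differences. The log2 fold change was 0.20 (SE 0.22, 95% interval -0.30 to 0.69, adjusted p = 0.628), and 0.18 with the block (SE 0.08, adjusted p = 0.106). Of all tested genes, 55.3% differed in the same direction at all 4 numbers, 28.4% with PUS10KO higher and 26.9% with PUS10KO lower. Xpo5 lies on chromosome 17 (46202782 to 46243598, plus strand).

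Dicer1, the ribonuclease that makes the mature duplex, was lower in all 4 PUS10KO libraries. It had 45.6, 49.1, 35.6 and 35.7 CPM in PUS10KO libraries 1 to 4, against 74.2, 69.0, 50.5 and 49.9 CPM in control libraries 1 to 4. The highest PUS10KO value, that of library 2, lay just below the lowest control value, that of library 4. Means were 41.5 ± 6.90 CPM in PUS10KO and 60.9 ± 12.5 CPM in control (SD over 4 libraries each). In edgeR's quasi-likelihood test this came to a log2 fold change of -0.55 (SE 0.18, 95% interval -0.96 to -0.14), with an unadjusted p of 0.014 and an adjusted p of 0.0834, which did not pass. With the block it was -0.55 (SE 0.08, 95% interval -0.73 to -0.36, adjusted p = 0.00133), and DESeq2 without the block gave an adjusted p of 0.0396. Between libraries of the same number the differences were -0.70, -0.49, -0.50 and -0.48.

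**Figure D2:**
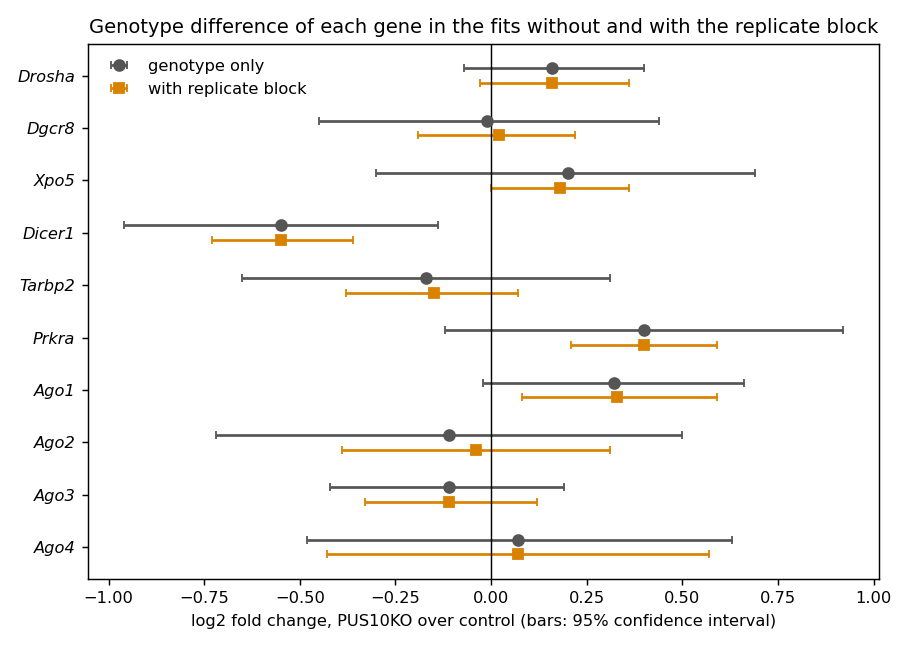
Log2 fold change of PUS10KO over control (horizontal axis) with 95% confidence intervals for each gene, from the fit with genotype only (grey circles) and the fit with the replicate block (orange squares). The block narrows the intervals and leaves the estimates nearly in place; with it the intervals of Dicer1 (-0.73 to -0.36), Prkra (0.21 to 0.59) and Ago1 (0.08 to 0.59) do not reach 0.

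The lower Dicer1 level was shared by most genes of its chromosome, and by a smaller share of its nearest neighbours. Dicer1 lies on chromosome 12 (104687742 to 104751952, minus strand, GRCm38), where the median log2 fold change of 405 tested genes was -0.60, 88.1% of genes had a negative value and 41.2% fell, against 7.11% of all tested genes that fell. The chromosome with the next lowest median was 10, at -0.25. Relative to the median of chromosome 12, the log2 fold change of Dicer1 was 0.05, and 55.3% of the genes of the chromosome had a lower value. In each library the log2 CPM of Dicer1 minus the median of the other tested genes of chromosome 12 was 1.21, 1.36, 0.81 and 0.83 in PUS10KO libraries 1 to 4, against 1.26, 1.25, 0.79 and 0.80 in control libraries 1 to 4. On this scale the genotypes overlapped, with a difference of 0.03 (two-sided exact permutation test, p = 0.771, n = 4 each). The log2 CPM itself differed by -0.54. Its exact permutation p of 0.0286 is the smallest that 4 against 4 libraries can give. Genotypes that do not overlap always give that p, so it adds nothing to the lack of overlap stated above. At the 4 numbers the relative difference was -0.05, 0.11, 0.02 and 0.03. This scale was chosen after the data were seen. Over the whole chromosome 2.96% of genes rose. Of the 20 tested genes nearest to Dicer1, 10 on each side, 12 had a negative log2 fold change, and their median was -0.32. Without the block 3 of them fell and 6 rose, and with the block 10 fell and 7 rose. With the block 74.8% of the tested genes of chromosome 12 fell. Over all tested genes 19.9% fell and 19.1% rose in that fit.

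**Figure D3:**
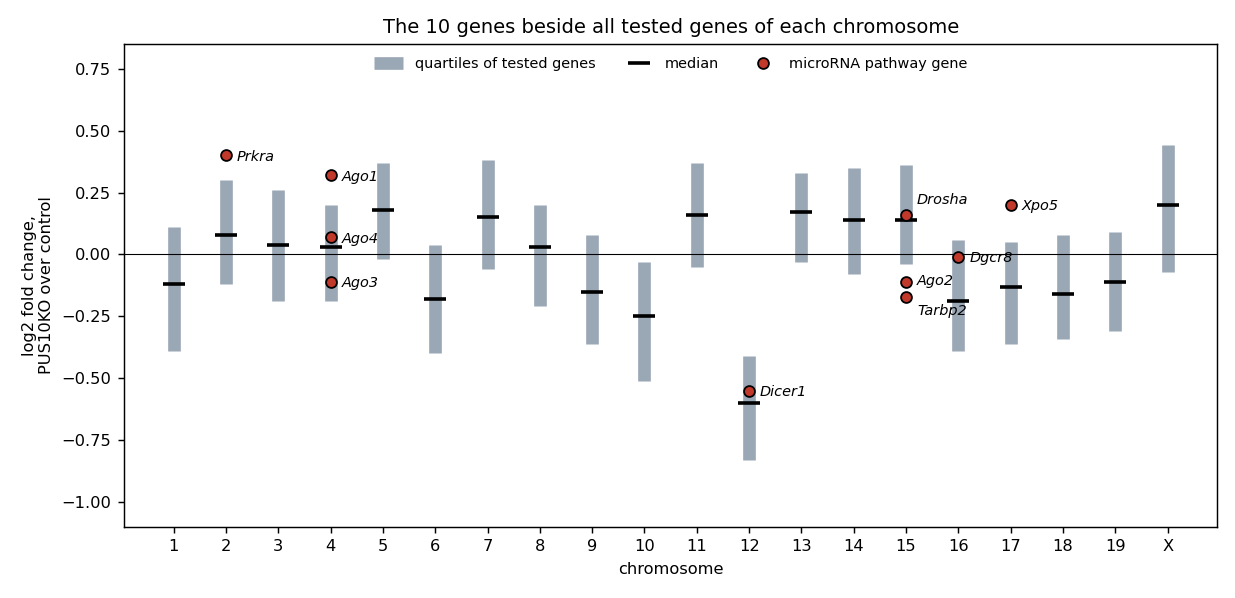
Log2 fold change of PUS10KO over control (vertical axis) by chromosome (horizontal axis); grey bars span the quartiles of all tested genes, black lines mark their median, and red points are the 10 genes. Dicer1 (-0.55) sits near the median of chromosome 12 (-0.60), and Drosha (0.16) near that of chromosome 15 (0.14). Xpo5, Prkra, Ago1, Tarbp2 and Ago2 lie outside the quartiles of their chromosomes, which by definition leave out as many genes as they enclose.

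The other genes stood on chromosomes with medians between -0.19 and 0.14. Xpo5 was 0.33 above the median of chromosome 17 and Prkra 0.31 above that of chromosome 2. Tarbp2 was 0.31 below the median of chromosome 15 (a difference of -0.31), which it shares with Drosha and Ago2. Ago1, Ago3 and Ago4 lie side by side within chromosome 4, whose median was 0.03.

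The Dicer1 partners Tarbp2 and Prkra encode related proteins that bind double-stranded RNA, and neither passed without the block. Prkra, also known as the activator of the kinase PKR, had 45.3, 42.2, 64.4 and 69.4 CPM in PUS10KO libraries 1 to 4, against 31.5, 34.5, 49.4 and 52.5 CPM in control libraries 1 to 4. It was higher in PUS10KO at every number, by 0.52, 0.29, 0.38 and 0.40 on the log2 scale, and libraries 3 and 4 were the high ones in both genotypes, so that the genotypes overlapped. The log2 fold change was 0.40 in both fits. Without the block it did not pass (SE 0.23, 95% interval -0.12 to 0.92, adjusted p = 0.312), and with the block it did (SE 0.08, adjusted p = 0.00579). Prkra lies on chromosome 2 (76629898 to 76648015, minus strand).

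Tarbp2, which in contrast restrains PKR, had 19.3, 28.9, 23.1 and 20.3 CPM in PUS10KO libraries 1 to 4, against 18.5, 34.0, 27.5 and 22.8 CPM in control libraries 1 to 4. Library 2 was the highest and library 1 the lowest in both genotypes, and PUS10KO was lower at 3 of 4 numbers. Its log2 fold change was -0.17 (SE 0.21, 95% interval -0.65 to 0.31, adjusted p = 0.678), and -0.15 with the block (adjusted p = 0.247). Tarbp2 lies on chromosome 15 (102518192 to 102523676, plus strand). Per transcript length, the ratio of Prkra to Tarbp2 was 2.21, 1.38, 2.63 and 3.23 in PUS10KO libraries 1 to 4, against 1.61, 0.957, 1.69 and 2.17 in control libraries 1 to 4. The ratio was higher in PUS10KO at each number, and the genotypes overlapped. It contains the Prkra level, which was higher at each number by itself, so it is not a separate observation. Its size depends on the gene model, with means of 2.36 in PUS10KO and 1.61 in control per transcript length. With merged exons of all transcripts as the length, the means were 5.62 in PUS10KO and 3.82 in control. Eif2ak2, the gene of PKR itself, had 124.7, 68.3, 67.3 and 70.7 CPM in PUS10KO libraries 1 to 4, against 79.2, 46.1, 49.97 and 66.1 CPM in control libraries 1 to 4 (log2 fold change 0.45, adjusted p = 0.299, or 0.0123 with the block). It is also an interferon-induced gene.

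Among the Argonaute genes, Ago1 was higher in PUS10KO at every number. It had 17.1, 17.1, 18.6 and 18.3 CPM in PUS10KO libraries 1 to 4, against 11.9, 13.2, 17.5 and 14.4 CPM in control libraries 1 to 4. Control 3 alone exceeded the lowest PUS10KO values. The log2 fold change was 0.32 (SE 0.15, 95% interval -0.02 to 0.66, adjusted p = 0.217), or 0.33 with the block (SE 0.11, adjusted p = 0.0458), close to the threshold.

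Ago2, whose protein can cut target RNA, varied most among libraries. It had 96.5, 91.8, 72.2 and 73.6 CPM in PUS10KO libraries 1 to 4, against 130, 102, 81.1 and 48.6 CPM in control libraries 1 to 4. Control 1 and control 4 were the highest and the lowest of all 8, so the control range enclosed the PUS10KO range. Its log2 fold change was -0.11 (SE 0.27, 95% interval -0.72 to 0.50, adjusted p = 0.836), and it was 0.12 without control 1 and -0.31 without control 4. Ago2 (chromosome 15, 73095844 to 73184935, minus strand) shares 219 exon bases with Chrac1 on the opposite strand, for which the value was 0.16 (adjusted p = 0.584).

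The 2 remaining Argonaute genes differed little. Ago3 had 17.5 to 20.1 CPM in PUS10KO and 18.4 to 24.4 CPM in control. On the log2 scale PUS10KO was lower by 0.28 at number 1 (-0.28) and by under 0.1 at the other numbers. At number 2 the values were nearly equal (19.33 CPM in PUS10KO, 19.37 CPM in control). The log2 fold change of Ago3 was -0.11 (95% interval -0.42 to 0.19, adjusted p = 0.656). Ago4 was the rarest of the 10, with 35 to 43 counts per PUS10KO library and 30 to 42 per control library, or 1.51 to 2.20 CPM in PUS10KO and 1.61 to 2.16 CPM in control. Its log2 fold change of 0.07 had a 95% interval of -0.48 to 0.63 (adjusted p = 0.89). Ago3 (126331704 to 126429556), Ago1 (126435012 to 126468583) and Ago4 (126489541 to 126533472) follow each other on the minus strand of chromosome 4.

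Levels of different genes were compared per kilobase of the annotated transcript with the longest coding sequence. In PUS10KO, Xpo5 (34.3 ± 9.07 CPM per kb, SD, n = 4) and Prkra (34.3 ± 8.42) were highest and overlapped. Drosha (16.1 ± 0.582), Tarbp2 (15.04 ± 2.82) and Dgcr8 (15.01 ± 2.23) followed and overlapped with each other. Below them stood Ago2 (6.05 ± 0.90), Dicer1 (4.21 ± 0.700), Ago1 (2.46 ± 0.107), Ago3 (1.21 ± 0.0720) and Ago4 (0.284 ± 0.0435), with no overlap between neighbours. In control the order was Xpo5 (29.98 ± 6.08), Prkra (26.0 ± 6.51), Tarbp2 (16.9 ± 4.36), Dgcr8 (15.1 ± 3.81), Drosha (14.4 ± 1.11), Ago2 (6.55 ± 2.48), Dicer1 (6.18 ± 1.27), Ago1 (1.97 ± 0.334), Ago3 (1.31 ± 0.173) and Ago4 (0.269 ± 0.0412). Neighbours among the first 5 overlapped there, as did Ago2 and Dicer1. With merged exons of all transcripts as the length, Tarbp2 moved to the sixth place in both genotypes and Prkra to the first place in PUS10KO, so both the top and the middle of this order depend on the gene model.

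**Figure D4:**
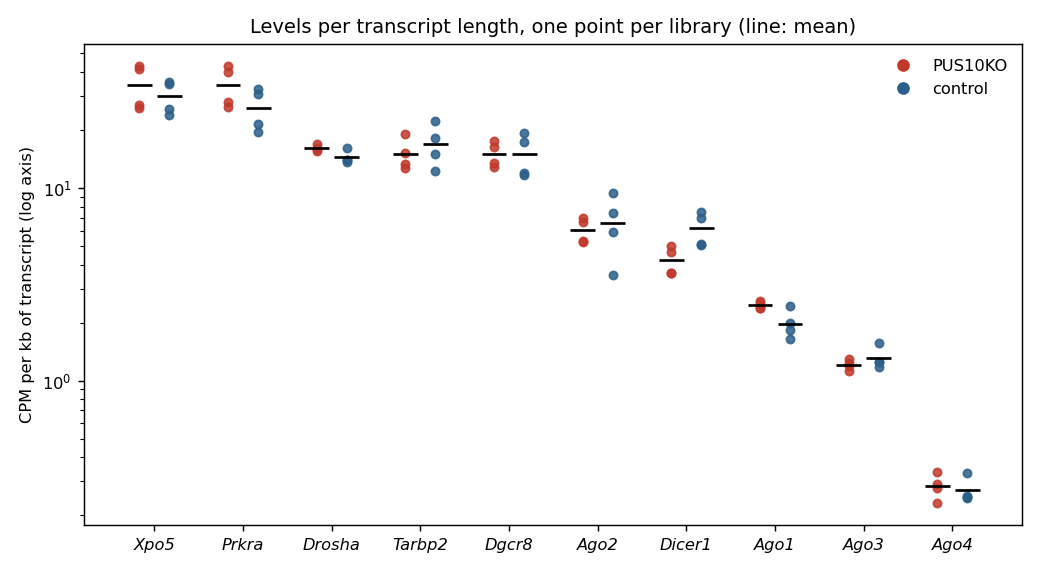
Level per transcript length in CPM per kb (vertical log axis) of the 10 genes, ordered by their mean in PUS10KO, with 1 point per library for PUS10KO (left of each pair, red) and control (right, blue) and lines at the mean of 4. Xpo5 and Prkra are highest, near 34.3 CPM per kb in PUS10KO, and Ago4 lowest, at 0.284 CPM per kb.

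Ago2 made up most of the summed Argonaute level. Its share per transcript length was 63.6%, 63.4%, 56.4% and 57.5% in PUS10KO libraries 1 to 4, against 73.1%, 69.0%, 59.5% and 50.8% in control libraries 1 to 4. The share was wider spread in control, and libraries 1 and 2 were the high ones in both genotypes. Ago1 had 24.8 ± 3.18% in PUS10KO and 20.8 ± 7.15% in control (SD, n = 4 each), Ago3 had 12.1 ± 0.493% in PUS10KO and 13.3 ± 2.49% in control, and Ago4 had 2.85 ± 0.433% in PUS10KO and 2.80 ± 0.800% in control. The sum was 10.0 ± 0.870 CPM per kb in PUS10KO and 10.1 ± 2.44 CPM per kb in control. In the Microprocessor, the ratio of Drosha to Dgcr8 per length was 0.914, 1.04, 1.22 and 1.19 in PUS10KO libraries 1 to 4, against 0.708, 0.815, 1.34 and 1.19 in control libraries 1 to 4, and overlapped between genotypes. The ratio of Dicer1 to Drosha per length was 0.290, 0.294, 0.233 and 0.225 in PUS10KO libraries 1 to 4, against 0.551, 0.499, 0.319 and 0.363 in control libraries 1 to 4. This ratio was lower in every PUS10KO library than in any control library, and no test was made of it. It contains the Dicer1 level, which did not overlap by itself, so it is not a separate observation. Of all tested genes 20.3% did not overlap between genotypes, and the share among such ratios was not computed.

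Many of these genes differed by library number, as did many of all tested genes. In the fit with the block, the number term passed for 6 of the 10 genes, where 42.4% of all tested genes passed: Prkra (adjusted p = 0.00394, edgeR), Xpo5 (0.0047), Dgcr8 (0.0142), Dicer1 (0.0144), Tarbp2 (0.0147) and Ago2 (0.0408). With 10 genes, 6 is not far from the 42.4% of all tested genes. This test was added after the data were seen. Averaged over genotypes, Xpo5 had log2 CPM of 7.62, 7.61, 7.04 and 7.01 at numbers 1 to 4, Dgcr8 6.31, 6.18, 5.74 and 5.77, and Dicer1 5.87, 5.86, 5.41 and 5.40. These 3 genes, like Ago2, were high in libraries 1 and 2, whereas Prkra, with 5.24, 5.26, 5.82 and 5.92, was high in libraries 3 and 4. Tarbp2 followed neither division, with 4.25, 4.98, 4.66 and 4.43. The span between the highest and the lowest number was 0.90 for Ago2, 0.72 for Tarbp2, 0.67 for Prkra and 0.10 for Drosha, with a median of 0.52 over the 10 genes and 0.57 over all tested genes. A span over 4 means is not the same quantity as a difference between 2 genotypes. What a number shares is not given by the labels.

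**Figure D5:**
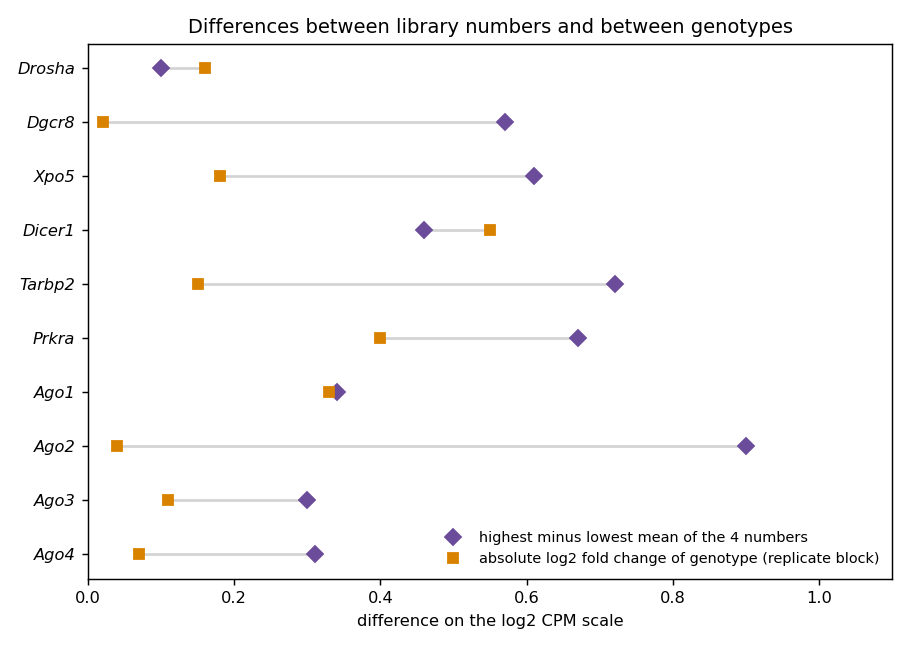
Span on the log2 CPM scale (horizontal axis) between the highest and the lowest of the 4 number means, averaged over genotypes (purple diamonds), beside the absolute log2 fold change between genotypes with the replicate block (orange squares). The span over 4 means exceeds the genotype difference for 8 of the 10 genes. The exceptions are Drosha (0.10 against 0.16) and Dicer1 (0.46 against 0.55). The share of all tested genes with the larger span was not computed, so whether the count is particular to these genes was not tested. Their median span is 0.52, against 0.57 over all tested genes.

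Of 95 other genes of the pathway 93 were tested: 1 rose, 6 fell and 86 did not pass, where 5.90% of all tested genes rose and 7.11% fell. The median log2 fold change was 0.06, against 0.01 over all tested genes. With the block 10 rose and 16 fell, where 19.1% and 19.9% of all tested genes did. Pnpt1, a mitochondrial exoribonuclease that also degrades mature microRNAs in human cells, was the one that rose, with 136, 118, 83.0 and 82.3 CPM in PUS10KO libraries 1 to 4, against 65.7, 70.5, 52.4 and 64.8 CPM in control libraries 1 to 4. All PUS10KO values were above all control values (log2 fold change 0.73, SE 0.19, adjusted p = 0.0373). Its call was lost in 6 of 8 fits without 1 library, those without PUS10KO 1 or 2 or any control library (adjusted p up to 0.0961).

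Among partners that bind double-stranded RNA, 2 of 10 fell, where 7.11% of all tested genes did. Strbp had 34.2, 35.4, 34.8 and 27.8 CPM in PUS10KO libraries 1 to 4, against 91.1, 94.8, 60.2 and 65.9 CPM in control libraries 1 to 4 (log2 fold change -1.24, SE 0.18, adjusted p = 0.00249). Stau2, a protein of RNA transport and decay, averaged 7.31 ± 0.800 CPM in PUS10KO and 15.3 ± 1.44 CPM in control (SD, n = 4 each, log2 fold change -1.07, SE 0.15, adjusted p = 0.00232). Neither gene overlapped between genotypes, and both kept their calls in all 8 fits without 1 library.

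Of 38 genes listed as effectors of silencing, 3 fell, a share near the 7.11% of all tested genes that fell. Pan2, the catalytic subunit of a poly(A) nuclease, had 9.07 ± 1.71 CPM in PUS10KO and 15.5 ± 1.70 CPM in control (log2 fold change -0.77, adjusted p = 0.0213). Eif4a2, a translation initiation helicase, had 238 ± 14.5 CPM in PUS10KO and 336 ± 32.5 CPM in control (log2 fold change -0.50, adjusted p = 0.0238). Lpp, a LIM-domain protein of focal adhesions, had 237 ± 18.7 CPM in PUS10KO and 506 ± 213 CPM in control (log2 fold change -1.09, adjusted p = 0.0286). Lpp is counted both in this list and among the microRNA host genes below, and its part in silencing was not tested. The call was lost for Pan2 without PUS10KO 1 or 2 or control 3 (adjusted p up to 0.0653), for Eif4a2 in 7 of the 8 fits, the one leaving out control 3 apart (0.0683 at most), and for Lpp without any 1 PUS10KO library or control 2 (up to 0.0839). The 3 GW182 scaffold genes Tnrc6a, Tnrc6b and Tnrc6c, also in this group, did not pass.

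Of 10 chaperones of Argonaute loading, 1 fell, also near that share. Hspa8, the constitutive Hsc70, had 1396 ± 183 CPM in PUS10KO and 2184 ± 251 CPM in control (log2 fold change -0.65, adjusted p = 0.022), a call lost without PUS10KO 3, PUS10KO 4 or control 2 (adjusted p up to 0.0779). None of the 17 Microprocessor cofactors passed, nor any of 6 export and import factors, each with 1 gene at an unadjusted p under 0.05. The lowest p among cofactors belonged to Erh, a Microprocessor-associated protein whose gene also lies on chromosome 12, with 27.9 ± 4.56 CPM in PUS10KO and 40.1 ± 7.65 CPM in control (log2 fold change -0.52, adjusted p = 0.0882, or 0.00341 with the block). Mettl3, the catalytic subunit of the RNA methyltransferase that marks primary microRNAs, had -0.20 (adjusted p = 0.26). Among the transport factors, Ipo8, an import receptor that binds Argonautes, had -0.25 (adjusted p = 0.166, or 0.034 with the block), and Ran, the GTPase that drives export by Xpo5, had 0.22 (adjusted p = 0.411).

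Genes known to host microRNAs were read as a partial view of the substrates. Of 35 listed, 22 were tested, 1 fell, 21 did not pass, and the median log2 fold change was 0.02, where 5.90% of all tested genes rose and 7.11% fell. With the block 4 rose and 3 fell, where 19.1% of all tested genes rose and 19.9% fell. The 7 of 22 called are not far from the 39.0% called over all genes. The host that fell was Lpp, described above, whose intron holds miR-28a (chr16:24827868-24827889 and chr16:24827908-24827929, plus strand, GRCm38.p6). Its mature arms are shown, with the seeds in capitals, as those of the tested host whose message differed between genotypes.
mmu-miR-28a-5p: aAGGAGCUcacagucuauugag
mmu-miR-28a-3p: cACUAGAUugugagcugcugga
Neither the microRNA nor its precursor was measured.

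The promoters that could be read for these genes are rich in GC. RefSeq windows were found for 9 of the 10 symbols, all except Ago2, with a pair of start sites for Ago1. Over the 250 bases before each start the GC content ran from 60.0% in Tarbp2 to 85.6% in Ago4, against a median of 52.4% over 32841 mouse promoters. The windows of Dicer1 and Prkra, which had the lowest and the highest log2 fold change of the 10, are printed 5′ to 3′ on the strand of the gene (both minus), with GC boxes (GGGCGG or CCGCCC) and CCAAT boxes (CCAAT or ATTGG) in capitals.
Dicer1 promoter, chr12:104751953-104752202, GRCm38.p6: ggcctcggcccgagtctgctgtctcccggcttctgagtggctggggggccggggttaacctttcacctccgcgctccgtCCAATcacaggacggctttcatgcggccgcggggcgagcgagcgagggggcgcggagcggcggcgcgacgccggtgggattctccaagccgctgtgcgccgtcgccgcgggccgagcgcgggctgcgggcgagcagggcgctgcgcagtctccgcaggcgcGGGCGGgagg
Prkra promoter, chr2:76648028-76648277, GRCm38.p6: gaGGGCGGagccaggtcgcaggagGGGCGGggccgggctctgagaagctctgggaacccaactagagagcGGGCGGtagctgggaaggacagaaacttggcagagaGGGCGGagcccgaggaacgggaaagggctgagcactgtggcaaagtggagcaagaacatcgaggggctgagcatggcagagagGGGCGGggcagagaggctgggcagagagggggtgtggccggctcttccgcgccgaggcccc
Dicer1 holds 1 GC box and 1 CCAAT box, and Prkra 5 GC boxes and 0 CCAAT boxes, with no overlap among them; 32.7% of all promoters hold a GC box and 33.9% a CCAAT box on either strand. No window of the 9 genes holds the TATA box letters TATAAA (12.4% of all promoters) on either strand.

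The genes closest to Prkra and Dicer1 in their pattern over the 8 libraries were found by the root mean square distance of log2 CPM centred on each gene's mean. For Prkra these were Auh (0.031), Vrk3 (0.078) and Rbm43 (0.081), against a root mean square of 0.37 for Prkra's own deviations. For Dicer1 they were Ppp4r3a (0.071), Dld (0.074) and Armc8 (0.075), against 0.36 for Dicer1 itself. Ppp4r3a and Dld lie on chromosome 12 like Dicer1, and Armc8 on chromosome 9. The distances are over the same 8 libraries, which differ in genotype and number. In the authors' deposited table of normalized values, from which differences between numbers had been removed, Dicer1 had 9.80, 9.91, 9.91 and 9.91 in PUS10KO 1 to 4, against 10.45, 10.35, 10.35 and 10.35 in control 1 to 4, on what its values show to be a log2 scale.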

How the data were processed

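The count table the authors deposited holds whole reads for each gene in 8 libraries, without normalization, and their second table holds normalized values, on a log2 scale judging by the values, since the labels do not name it. There, within each of the 12211 genes, PUS10KO plus control sums to the same total at every number (tolerance 1e-06). Per the submitters' processing notes, STAR 2.7.8a, DESeq2 and the mm10 build were used; for the counter, its strand setting and the annotation, the tool or version is not given in the sources. Total counts were 17561114 to 24563499 per library; intervals come from the fits and cover the spread between libraries. Groups come from the titles. Every pair of libraries within a genotype differed by more than counting error (chi-square over degrees of freedom at least 17.75).

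Counts were filtered with filterByExpr, scaled by TMM and tested in R 4.3.3 with edgeR 4.0.16 (robust quasi-likelihood, genotype only, Benjamini-Hochberg over 11909 genes, threshold 0.05), after the fits had been tested on simulated data. Alternatives were a replicate block, DESeq2 1.42.0, limma 3.58.1 voom, RLE factors, no filter, the normalized table and leaving out each library. Deviations of libraries with the same number correlated across genes (r = 0.681, 0.722, 0.633 and 0.687), which was read as pairing by number, although correlations with another number reached 0.303, 0.0416, 0.582 and 0.503; this comes from the counts, not the labels. Positions and transcript lengths come from the GENCODE M21 annotation of GRCm38, in which 99.9% of the genes were found. The 10 genes and all lists were chosen with earlier results of these data known. Named besides the 10 genes were, by rule, each list's called genes, or the 2 lowest p per group where none was called, Eif2ak2, and the 3 genes most like the highest and lowest fold change; Trmt2a, Chrac1, the Tnrc6 genes and library checks were named after values were seen.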

Additional observations from a re-analysis of the deposited data

Results flagged for a closer look

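In 3 of 20 groups of 4 libraries, 1 library stood apart from the other 3 by Dixon's criterion at the 95% level; chance flags about 1 in 20 groups. Drosha had 73.5 CPM in control 3, against 62.5 to 64.1 CPM in the other control libraries (gap over range 0.856). Ago3 had 24.4 CPM in control 1 and 18.4 to 19.4 CPM in the others (0.842). Ago4 had 2.16 CPM in control 3 and 1.61 to 1.64 CPM in the others (0.936), from 42 counts.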

How the results depend on the processing

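The paired fit changed the counts most. With the replicate block 4641 genes were called, against 1550 without it, and all 1550 were among them; 3 of the 10 genes, 26 other pathway genes and 7 host genes were called, against 0, 7 and 1 without the block. The authors' normalized values with the block gave 4757, 3, 24 and 6, and DESeq2 gave 2433, 1, 12 and 4. Without 1 library, the calls ran from 1012 to 1332 genes, 0 to 0 of the 10 genes, 3 to 5 other pathway genes and 0 to 2 host genes; the lowest count of genes was without PUS10KO 3. The other alternatives, limma voom, RLE factors and no filter, kept all 4 counts within 1.5 times.

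Of 141 alternative values for the 10 fold changes, 124 kept direction and side of the threshold, 7 became calls and 10 changed sign. Dgcr8 was 0.02 with the block, with voom and with the authors' values, and -0.09 to 0.15 without 1 library. Ago2 was -0.31 to 0.12 and Ago4 -0.02 to 0.19 without 1 library, and Dicer1 was 0.03 relative to the chromosome 12 median. Causes were not tested. Ago4 had the fewest counts, 30 to 43 per library; what depth adds to its error was not separated from replicate spread. Libraries of a genotype may be technical replicates, and sex chromosome content, the level of chromosome 12 and genotype cannot be told apart in these 8 libraries.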
